A study of Drosophila melanogaster with 4 samples.

Results

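The cup genes of *Drosophila melanogaster* were taken as all annotated genes whose symbol ends in -cup, and their reads were followed in testes of wild-type and *sws1* males. The rule found 11 genes, *c-cup*, *d-cup*, *f-cup*, *h-cup*, *m-cup*, *p-cup*, *r-cup*, *s-cup*, *t-cup*, *w-cup* and *wa-cup*, among 13771 genes with a transcript in the deposited table. The WT group was Canton S, and the mutant group carried the *sws1* allele of *Swiss cheese*, the fly ortholog of the phospholipase gene *PNPLA6*. The stocks came from different sources, and no crossing to a common background is described. Effects of the allele and of the stock background therefore cannot be told apart. Males of both groups were 5 days old and raised at the same temperature, and each genotype had 2 libraries, each made from testes pooled over many males. The allele was present in the whole animal, so no cell type of the testis was singled out. Whole testes were sequenced after removal of ribosomal RNA, and the question was which transcripts differ between *sws1* and WT testes.

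In the fly male germline nearly all transcription for the stages after meiosis happens in primary spermatocytes, and their mRNAs are stored for use in the spermatids. The cup genes belong to a small group that is transcribed after meiosis, in elongating spermatids, where their mRNAs gather at the growing ends of the tails. The names come from the shapes in which these mRNAs are seen, the comet genes being the other class of the same group. Late spermatids are then separated from each other, in the step called individualization, and coiled before release.

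The 4 libraries held between 2218335 and 4498060 counts. The mutated gene, *sws* (FBgn0003656), had 662 and 500 counts in WT against 166 and 179 in *sws1*, which gave a log2 fold change (log2FC, *sws1* against WT) of −1.28 with a standard error (SE) of 0.15 and an adjusted p of 2.12e-06 (edgeR). Markers of male accessory tissues moved with genotype. All 11 tested accessory gland genes were higher in both *sws1* libraries than in both WT libraries, and 6 of them passed the test. With DESeq2 11 of 12 passed, without *sws1* replicate 1 all 10 that were tested and without *sws1* replicate 2 all 12. Their list of 12 summed to 34.6 and 44.2 counts per 1000000 counts of the scaled library (CPM) in WT and to 1190 and 459.9 CPM in *sws1*, so that *sws1* replicate 1 stood above *sws1* replicate 2, and none of the 12 was at 0 in all libraries of a genotype. Of 6 ejaculatory duct and bulb genes, the 4 tested (*EbpIII*, *Dup99B*, *Est-6* and *Gld*) were all higher. The 6 summed to 92.6 and 93.6 CPM in WT against 519.5 and 492.1 CPM in *sws1*. *Ebp*, not tested by edgeR, had 6 and 3 counts in WT against 2 and 6 in *sws1*. *EbpII*, also not tested by edgeR, was at 0 in 3 libraries. Over all genes tested 9.38% passed as higher (3.18% with DESeq2). The fat body list summed to 366.4 to 410.3 CPM in WT and 688.3 to 741.8 CPM in *sws1*. Most of this was *apolpp*, with 335.4 and 292.0 CPM in WT against 650.0 and 583.2 CPM in *sws1*. *Fbp1* was at 0 in both WT libraries. Of the 7 tested fat body genes 3 had a log2FC below 0 (median of the 7, 0.02) and 2 were higher (*apolpp* and *Apoltp*). The number was 1 with DESeq2 and 1 without *sws1* replicate 1. Of 8 muscle genes 2 were higher (*Mlc2* and *Act57B*), with sums of 484.1 to 506.9 CPM in WT and 533.5 to 619.3 CPM in *sws1*. That number fell to 1 with DESeq2, without either WT replicate and without *sws1* replicate 1. The part of these tissues in the results below was not tested.

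The cup genes are scattered over the genome (coordinates of the BDGP6 assembly). On 2L lie *c-cup* (FBgn0031367, 1831627 to 1832565), *w-cup* (FBgn0032269, 10575860 to 10577792) and *t-cup* (FBgn0051858, 12496616 to 12497333), all on the minus strand. On 3R lie *wa-cup* (FBgn0037502, 7420765 to 7423057, plus strand), *d-cup* (FBgn0038089, 12891956 to 12893158, plus strand), *f-cup* (FBgn0028487, 13695263 to 13700838, minus strand), *h-cup* (FBgn0038334, 15381407 to 15382951, minus strand) and *m-cup* (FBgn0038488, 17144475 to 17149412, minus strand). The X chromosome carries *p-cup* (FBgn0030840, 17446350 to 17448774) and *r-cup* (FBgn0031142, 21023390 to 21025888), both on the minus strand, and 2R carries *s-cup* (FBgn0050044, 12495672 to 12501459, plus strand). All 11 are annotated as protein coding, but their structures differ. *t-cup* and *h-cup* consist of 1 exon and encode proteins of 216 and 256 residues, and *c-cup*, with 2 exons, encodes the shortest protein of the group, 201 residues. At the other end, the transcript of *f-cup* with the most counts has 12 exons and encodes 693 residues, and that of *m-cup* has 6 exons and encodes 702. The exons of a cup gene covered 1875 bases at the median, against 1932 bases for all genes tested.

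**Figure D1:**
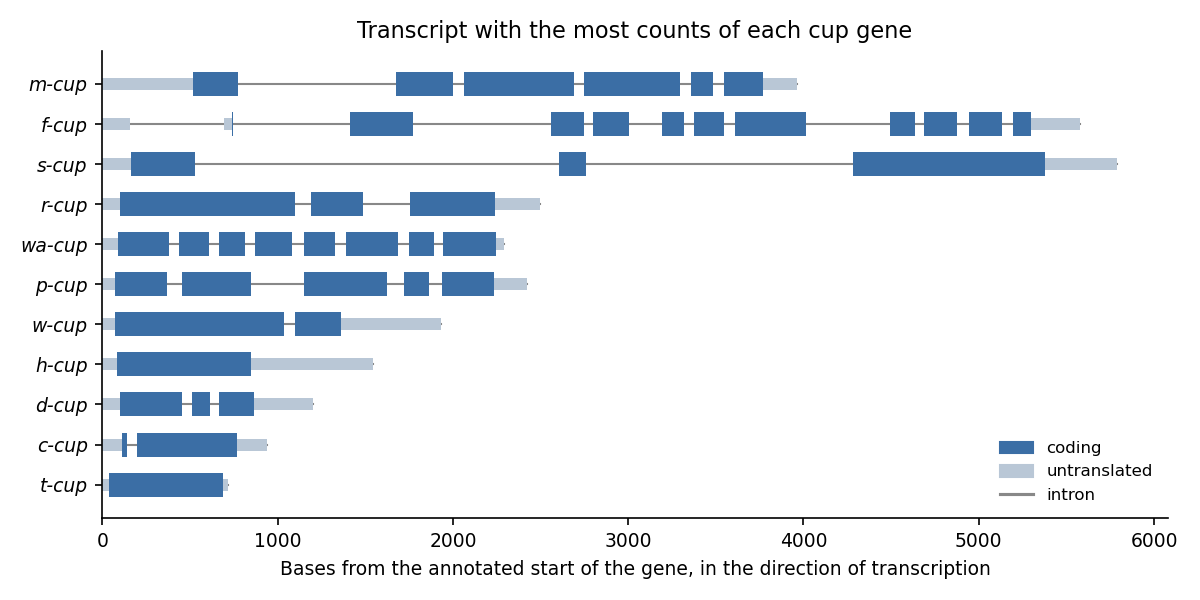
Exons (thin boxes), coding parts (thick boxes) and introns (lines) of the transcript with the most counts of each of the 11 cup genes, drawn to scale from the annotated start of the gene in bases. *t-cup* and *h-cup* have no intron, while *s-cup* and *f-cup* span the longest stretches.

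Several cup genes share their position with other genes. *t-cup* lies in an intron of *bun* on the same strand, and *s-cup* and *w-cup* lie in introns of *fdl* and *Trim9* on the opposite strand, with no shared exon bases. The exons of *h-cup* share 327 bases with *Rbp* on the opposite strand, which had 18 and 1 counts in WT against 2 and 1 in *sws1*. The exons of *f-cup* share 251 bases with *CG14367*, which had at most 3 counts in any library, and 63 with *ninaB*, which had at most 1, both on the opposite strand. For *d-cup*, 457 exon bases are shared with *asRNA:CR44235* on the opposite strand, and the single transcript of *c-cup* contains the hairpin of *mir-2280* on the same strand. Neither of these RNAs was analysed here. The library kit keeps the strand, but the strand setting of the counting is not given in the sources used here, so the values of *d-cup* and *c-cup* are uncertain to the extent that reads of these RNAs were counted with them.

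All 11 cup genes had reads in every library, but their levels spanned nearly 3 orders of magnitude. Levels between genes are compared as CPM per kb (1000 exon bases) in WT. *w-cup* led with 2475 and 2187 CPM per kb in the WT replicates, which placed it at rank 32 of the 9634 genes tested. *c-cup* followed with 633 and 686 CPM per kb (rank 179), then *t-cup* with 322 and 322 and *wa-cup* with 308 and 290. Lower down came *h-cup* (204 and 203 CPM per kb), *d-cup* (95.5 and 79.7), *m-cup* (64.0 and 71.2), *f-cup* (53.4 and 68.5), *r-cup* (54.6 and 50.3) and *p-cup* (32.3 and 31.3). *s-cup* was last, with 2.58 and 2.87 CPM per kb, at rank 8390. The mean of *w-cup* was 3.54 times that of *c-cup*, and *p-cup* stood 11.7 times above *s-cup*. Among neighbours in this order, the WT values of *m-cup* and *f-cup* overlapped, as did those of *f-cup* and *r-cup*. The other neighbours did not overlap in WT at the lengths used. These lengths join the exons of all annotated transcripts of a gene. They are 3792 bases for *m-cup* and 3529 for *f-cup*, whose transcripts with the most counts have 2815 and 2558. The places of *m-cup* and *f-cup* beside *d-cup* and *r-cup* therefore depend on the length chosen.

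**Figure D2:**
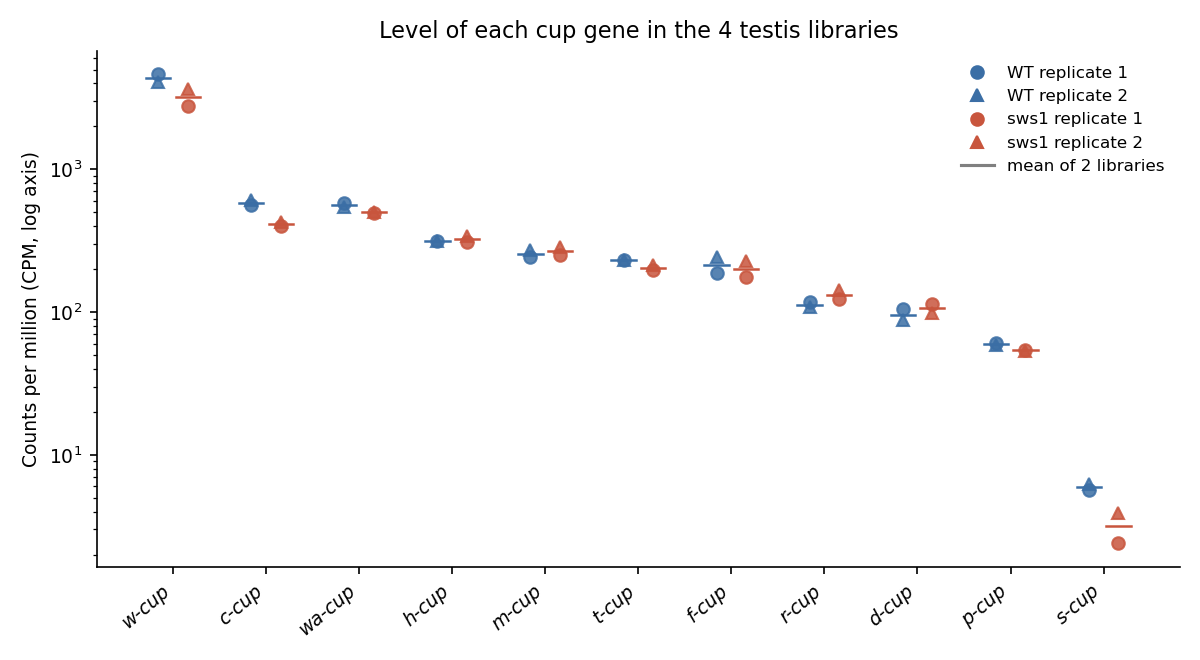
Level of each cup gene in CPM on a log axis, not divided by length, with circles for replicate 1, triangles for replicate 2 and a line at the mean of both libraries of a genotype (blue WT, red *sws1*). Both *sws1* libraries lie below both WT libraries in *w-cup*, *c-cup*, *wa-cup*, *t-cup*, *p-cup* and *s-cup*, and above them in *r-cup*. *s-cup* is low in all 4 libraries.

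Of the 11 cup genes, *c-cup* and *w-cup* were called lower in *sws1* testes, and none was called higher. A call needed an adjusted p under 0.05 by edgeR's quasi-likelihood test over all genes and an absolute log2FC above 0.3. All 11 had enough counts to be tested, so that 2 of 11 stand beside 11.5% of all genes tested that were called lower. The cup genes had a median log2FC of −0.15, against 0.02 for all genes tested, and 7 of them had a log2FC below 0. With DESeq2 on the same counts, the same 2 genes were called, beside 5.52% of all genes. In RNA from whole testes, fewer cells of a type and less RNA per cell cannot be told apart.

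*c-cup* had 2375 and 1545 counts in WT against 1001 and 981 in *sws1*. Scaled to the library size these are 558 and 605 CPM in WT against 399 and 428 CPM in *sws1*, or 581 ± 32.9 and 413.5 ± 19.9 CPM (SD, n = 2 each). Both *sws1* libraries lay below both WT libraries, and the gap between genotypes was larger than the spread within either. The fitted log2FC of −0.49 (SE 0.10) had an adjusted p of 0.00145 in edgeR and amounts to 71.2% of the WT level with a 95% interval of 61.4% to 82.5%. The call held with each library left out in turn, with a log2FC from −0.55 to −0.44. It was smallest, −0.37 (adjusted p = 0.0126, edgeR), when a trend of the fold changes with exon length was removed.

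*w-cup*, the most abundant cup gene, had 19727 and 10466 counts in WT against 7005 and 8344 in *sws1*. Per library this made 4636 and 4096 CPM in WT against 2795 and 3637 CPM in *sws1*, or 4366 ± 381.5 and 3216 ± 595 CPM (SD, n = 2 each). The groups did not overlap, but the *sws1* replicates were 1.30-fold apart and *sws1* replicate 2 came near the lower WT library. The fitted log2FC of −0.44 (SE 0.12) had an adjusted p of 0.0145 in edgeR and amounts to 73.6% of the WT level with a 95% interval of 61.8% to 87.7%. This call depended on single libraries. Without WT replicate 1 the log2FC was −0.35 with an adjusted p of 0.0950 (edgeR), and without *sws1* replicate 1 it was −0.26 with an adjusted p of 0.0212 (edgeR), which is inside the threshold on the fold. Without *sws1* replicate 2 it was −0.64.

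Of the other 9 genes, 5 had libraries that did not overlap between the genotypes but did not pass the test. Over the 11 genes, both *sws1* libraries were below both WT libraries in 6 and above them in 1, while over all genes tested these shares were 28.9% and 31.3%. *wa-cup* had 578 and 545 CPM in WT against 497 and 502 CPM in *sws1*, and its log2FC of −0.17 (SE 0.10) did not pass (edgeR adjusted p = 0.251). *t-cup* had 231 and 231 CPM in WT against 197 and 213 CPM in *sws1* (log2FC −0.17, SE 0.12). The log2FC of *t-cup* went to −0.0003 when the trend with exon length was removed, so that its direction rests on the treatment of length. *p-cup* had 60.6 and 58.7 CPM in WT against 54.3 and 53.6 CPM in *sws1* (log2FC −0.15, SE 0.16). The intervals of these 3 genes reached down to 77.0%, 75.0% and 71.6% of the WT level and up to 103%, 105% and 114%, so that no change and a fall to the lower of these levels both lie within them.

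*r-cup*, the only member with both *sws1* libraries above both WT libraries, had 117 and 108 CPM in WT against 122 and 142 CPM in *sws1*. A log2FC of 0.23 (SE 0.14) did not pass (edgeR adjusted p = 0.253) and had a 95% interval of 96.4% to 143% of the WT level. *s-cup* had the estimate farthest from 0 and the least precise. It had 24 and 16 counts in WT against 6 and 9 in *sws1*, for which the fit returned a log2FC of −0.91 (SE 0.45, edgeR adjusted p = 0.1597) and an interval of 28.1% to 101% of the WT level. The unadjusted p was 0.0547, so that a difference of this size did not pass at these counts, and the log2FC moved between −1.29 and −0.58 as libraries were left out.

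In the remaining 4 genes the libraries of the genotypes overlapped. *h-cup* was the steadiest of them, with 316 and 314 CPM in WT against 311 and 341 CPM in *sws1*, and an interval of 88.8% to 121% of the WT level. *m-cup* had 242.5 and 270.1 CPM in WT against 252 and 284 CPM in *sws1*, with an interval of 88.7% to 124%. *d-cup* had 105 and 87.3 CPM in WT against 114 and 98.9 CPM in *sws1*, with an interval of 89.7% to 137%. In *f-cup* the replicates differed more than the genotypes, with 188 and 242 CPM in WT against 177 and 227 CPM in *sws1*. The replicates of *f-cup* were 1.28-fold apart in both genotypes, and its interval was 76.0% to 116.5% (log2FC −0.09, SE 0.15). The adjusted p of these 4 genes lay between 0.522 and 0.781 (edgeR).

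**Figure D3:**
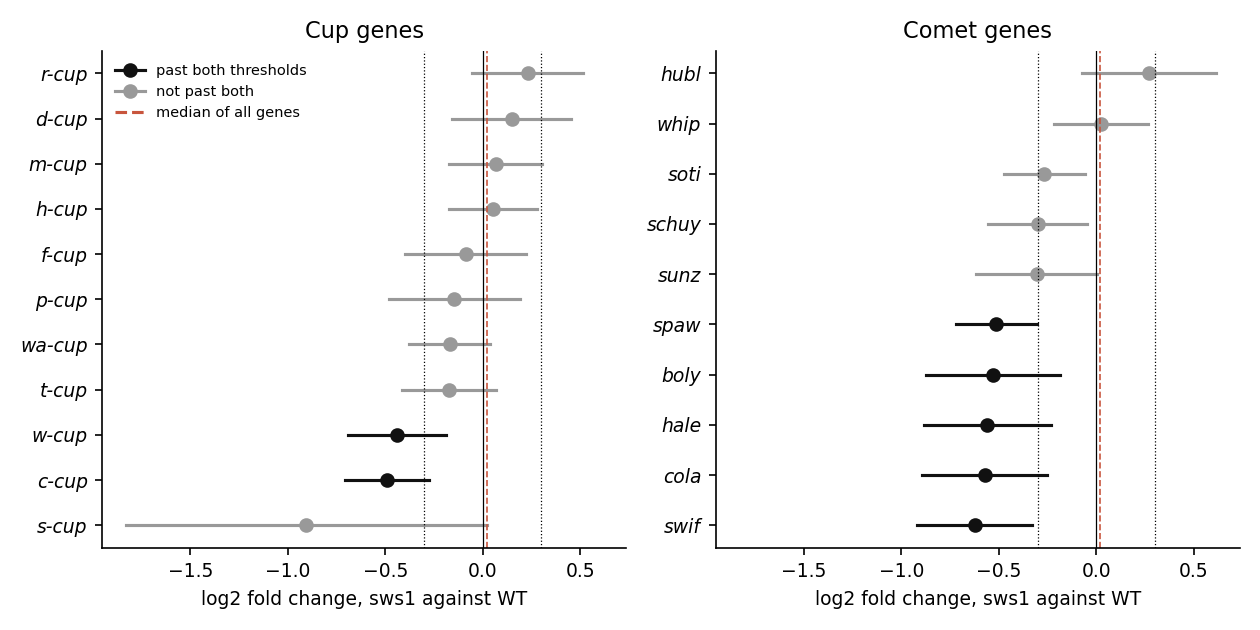
Log2FC of *sws1* against WT (points) with 95% intervals from edgeR (lines) for the 11 cup genes and 10 comet genes, black where both thresholds were passed. Dotted lines mark −0.3 and 0.3, the dashed line the median of all genes (0.02). Only *c-cup* and *w-cup* are black among the cup genes, and *s-cup* has the widest interval.

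Of the 11 genes, 8 have a single annotated transcript, and the counts of *f-cup*, *w-cup* and *m-cup* are sums over several. For *w-cup*, transcript FBtr0080132 had 18858 and 10059 counts in WT against 6631 and 7915 in *sws1*, and FBtr0304115 had 869 and 407 in WT against 374 and 429 in *sws1*. The first of these took 94.7% to 96.1% of the reads of *w-cup*, with Wilson 95% intervals from 94.1% to 96.5% that cover counting error only. For *m-cup*, FBtr0083414 took 93.9% to 96.4% (Wilson 95% intervals from 92.3% to 97.6%). The reads of *f-cup* were spread over 5 of its 9 transcripts, and the other 4 had 0 counts in every library. FBtr0082846 of *f-cup* had 327 and 249 counts in WT against 223 and 210 in *sws1*, while FBtr0334526 had 147 and 61 in WT against 57 and 132 in *sws1*, so that the division of the reads differed between replicates.

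Tested transcript by transcript with edgeR, 0 of the 16 cup gene transcripts with enough counts passed the thresholds, as did 0 of all 14158 transcripts tested (0.0%). At an unadjusted p under 0.05 the test found 2414 of all transcripts and 1 of the 16, FBtr0077894 of *c-cup* (log2FC −0.48, SE 0.08, adjusted p = 0.121, edgeR). DESeq2 on transcripts called 2 lower, FBtr0077894 of *c-cup* and FBtr0080132 of *w-cup* (log2FC −0.46, adjusted p = 0.00971, DESeq2), beside 5.84% of all transcripts. The 0 of edgeR over all transcripts depended on the filter. With at least 10 counts required in every library, it called 297 of 10037 transcripts lower (2.96%) and 153 higher, while the adjusted p of FBtr0077894 was 0.0517 and 0 of 15 cup gene transcripts passed.

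The comet genes, the other class of genes known for transcription in spermatids, were examined as a list of 10. In this list 5 genes were called lower and none higher, with a median log2FC of −0.41, beside the 11.5% of all genes called lower. They were *swif* (log2FC −0.62, SE 0.14), *cola* (−0.57, SE 0.15), *hale* (−0.56, SE 0.16), *boly* (−0.53, SE 0.16) and *spaw* (−0.51, SE 0.10), with adjusted p between 0.000726 and 0.0295 (edgeR). *spaw*, the most abundant of them, had 4964 and 2946 counts in WT against 1899 and 1993 in *sws1*. The count of 5 depended on the libraries and the tool, since it was 2 without WT replicate 1, 2 without *sws1* replicate 1 and 2 with DESeq2 (5.52% of all genes). *soti*, an inhibitor of the ubiquitin ligase that permits caspase activation in spermatids, had a log2FC of −0.27 and did not pass (adjusted p = 0.0629, edgeR). The libraries of *hubl* overlapped, with 84.8 and 115.1 CPM in WT against 106 and 133 CPM in *sws1*, and it did not pass (log2FC 0.27, SE 0.16, edgeR adjusted p = 0.266). *cola* and *swif* share their annotated span and exon length, as do *spaw* and *hubl*, so the division of reads within each pair is uncertain. The 5 genes called lower include both *cola* and *swif*, so they are not 5 separate loci. Whether cup and comet genes differ in their response was not tested.

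Lists for other stages of the germline stand beside these values, and their counts are to be read against 11.5% of all genes called lower and 9.38% called higher. Among 14 genes for sperm chromatin and tail structure, whose mRNAs are made in spermatocytes and translated in spermatids, 11 were called lower, with a median log2FC of −0.52. *ProtB*, a protamine gene, was the farthest from 0 (log2FC −1.89), followed by *Mst84Da* (−0.92), which encodes a sperm tail protein. With the trend with exon length removed, 5 of the 14 were called and the median was −0.29. The 11 tested regulators of transcription in spermatocytes gave 3 lower (*Taf12L*, *sa* and *can*) and 1 higher (*achi*), with a median of −0.04. With DESeq2 they gave 2 lower and 0 higher, and without WT replicate 1 they gave 1 lower and 0 higher. Of 9 genes for meiotic division, 1 was higher (*CycB*, log2FC 0.47) and none lower. This count changed with the fit, from 0 higher with DESeq2 and without WT replicate 1 to 2 without *sws1* replicate 1 and 4 without WT replicate 2, and without *sws1* replicate 2 or with the trend with exon length removed it was 1 lower and 0 higher. Of 6 tested genes of spermatogonia and stem cells 1 was lower (*bgcn*, log2FC −0.85), a call lost with DESeq2, without WT replicate 2 and without *sws1* replicate 1. Of 7 genes of cyst cells, the somatic cells enclosing the germline, *Egfr* (log2FC 0.67), *eya* (0.36), *zfh1* (0.12) and *so* (−0.15) did not pass. The farthest from 0 was *tj* (log2FC 1.64), with 25 and 10 counts in WT against 31 and 45 in *sws1*. *cora* and *Fas3* encode septate junction proteins, and the paper describes septate junctions in other tissues too. In all, 3 of the 7 genes (*tj*, *cora* and *Fas3*) were called higher and none lower, with a median of 0.67. With DESeq2 1 of them, *cora*, was called, and without WT replicate 1 the number was 2. Differences between the lists were not tested.

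**Figure D4:**
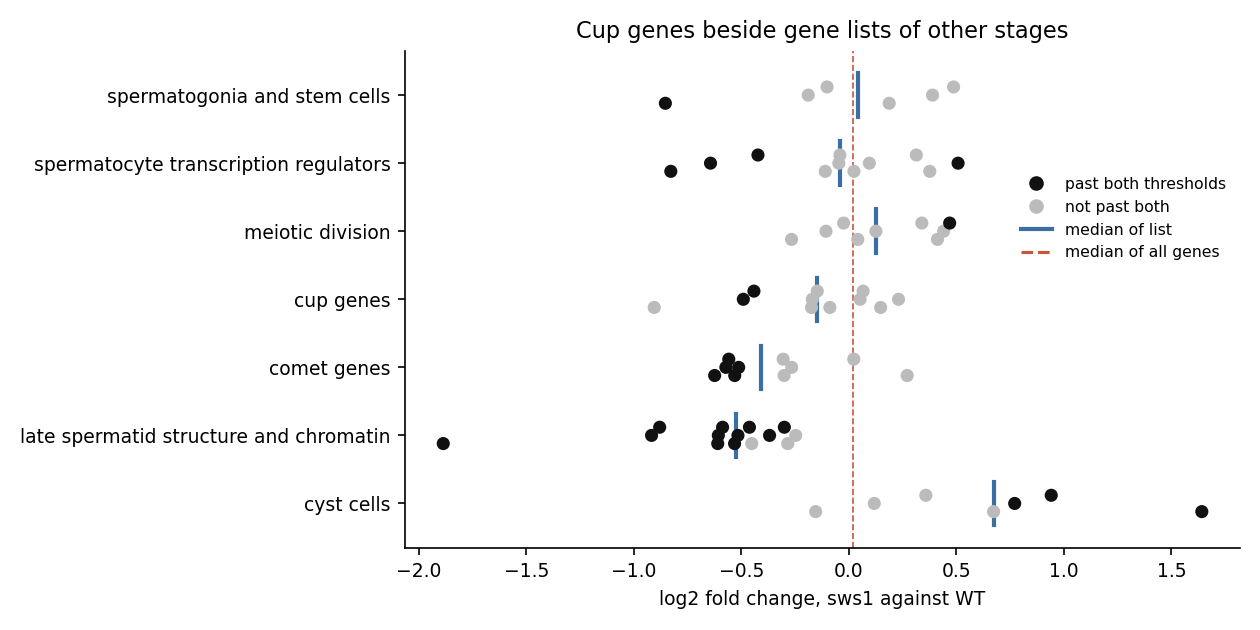
Log2FC of *sws1* against WT for each tested gene (points, black where both thresholds were passed) of 7 gene lists, with the median of each list as a blue bar and the median of all genes as a dashed line. The bar of the cup genes, at −0.15, lies to the right of those of the comet genes (−0.41) and the late spermatid genes (−0.52).

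Across the 11 cup genes the log2FC had a Spearman correlation of −0.23 with the WT level in CPM and of 0.24 with exon length. These are descriptions over 11 genes that share the same 4 libraries. The 2 genes called lower both lie on 2L, as does *t-cup*, which did not pass, and neither of the 2 genes on the X chromosome passed.

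**Figure D5:**
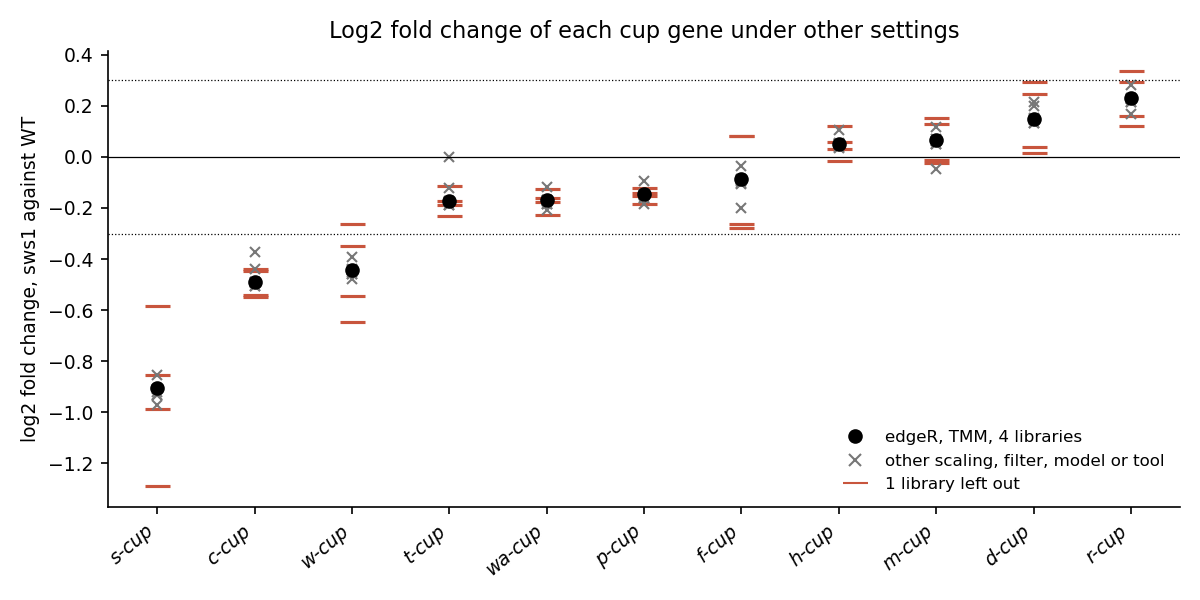
Log2FC of each cup gene with edgeR and all 4 libraries (black points), with other scaling, filters, models or tools (grey crosses) and with 1 library left out (red bars). Dotted lines mark −0.3 and 0.3. *c-cup* lies below −0.3 throughout, *w-cup* crosses it when *sws1* replicate 1 is left out, and *f-cup*, *h-cup* and *m-cup* cross 0.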

How the data were processed

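Per the labels, the authors used Trimmomatic, HISAT2 and HTSeq, and they deposited raw, unscaled counts for each transcript, for 2 WT and 2 *sws1* testis libraries of 2218335 to 4498060 counts. The build, the annotation release and the strand setting are not given in the sources used here. Of 29939 transcripts, 29929 matched an Ensembl annotation of BDGP6 and were summed per gene.

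Genes were filtered with filterByExpr, scaled by TMM and fitted together in edgeR 4.0.16 (R 4.3.3; robust quasi-likelihood test, genotype the sole covariate), and p-values were adjusted by Benjamini-Hochberg over the 9634 genes tested. Calls followed the study's thresholds (adjusted p under 0.05, log2FC beyond 0.3 in either direction). SE was taken as |log2FC| over the root of the F statistic, and the 95% intervals use it with the total degrees of freedom of the fit. These add prior degrees of freedom, estimated over all genes, to the residual ones, so the intervals do not rest on the replicates of a gene alone. CPM are counts per 1000000 counts of the TMM-scaled library.

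Every cup gene was named, with comet genes past the thresholds and at most 2 such genes of each other list, chosen by log2FC. *sws*, genes overlapping a cup gene and markers at 0 were also named. *soti*, *hubl*, *achi*, *can*, *Fas3*, *EbpIII*, *Gld* and the neighbours of *w-cup* and *c-cup* were named after their values were seen. So were *Egfr*, *eya*, *zfh1*, *so* and *Ebp*. The cup genes, the 10 other lists of germline stages and somatic tissues and the tests were chosen with earlier results of these data known. Alternatives were DESeq2 1.42.0, other scaling factors and filters, other thresholds, a loess trend with exon length removed, the replicate number as a block, and each library left out. The counts of the other lists under them were added after seeing the data. Python 3.11.15 with pandas 2.3.3 made the tables.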

Additional observations from a re-analysis of the deposited data

How the results depend on the processing

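Over all genes, 2013 were called, 994 with DESeq2 and 593 with an absolute log2FC above 1, and leaving out libraries gave 1394 to 1905. The number of cup genes called lower was 2, and it was 0 with an absolute log2FC above 1 and 1 to 2 with a library left out, where *w-cup* was the gene lost (without WT replicate 1 and without *sws1* replicate 1). It was 2 under the other alternatives. No cup gene transcript was called except with DESeq2, which called 2. Upper-quartile factors turned the larger group of all called genes from lower (1109 of 2013) to higher (1111 of 2049), with the median of all genes at 0.07, and left the cup calls as they were. The log2FC of *f-cup* ranged from −0.28 to 0.084, that of *h-cup* from −0.016 to 0.12 and that of *m-cup* from −0.024 to 0.15 as libraries were left out, and *m-cup* was at −0.047 with the trend of exon length removed. Of 120 alternative values for single cup genes, 112 kept their direction and their call or lack of one, 6 changed sign and 2 lost the call; the cause was not tested. With at least 10 counts in every library, *s-cup* was not tested. With a library left out, the lone library of a genotype is assumed to vary like the other group. The labels do not say that equal replicate numbers mark a shared batch, and the differences between replicates did not move together in the 2 genotypes (correlation across genes −0.01). With the replicate block 2104 genes were called, 11 accessory gland genes in place of 6, and the same 2 cup genes, *c-cup* with a log2FC of −0.49 and *w-cup* with −0.45.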

Other observations

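Both annotated genes next to *w-cup* on 2L were also lower in *sws1*, a pair singled out after their values were seen. *CG6138*, which ends 7847 bases from *w-cup*, had 1033 and 609 counts in WT against 451 and 427 in *sws1* (log2FC −0.39, SE 0.12, adjusted p = 0.0172, edgeR). *CG34160*, 1960 bases away on the other side, had 1026 and 721 counts in WT against 467 and 492 in *sws1* (log2FC −0.38, SE 0.12, adjusted p = 0.0286, edgeR). DESeq2 called neither (adjusted p = 0.0704 and 0.106). Both lie on the opposite strand to *w-cup*, within the span of *Trim9*. *Trim9* itself had 54 and 26 counts in WT against 48 and 37 in *sws1* and did not pass (log2FC 0.60, SE 0.26, adjusted p = 0.106, edgeR). The genes next to *c-cup*, *CG31664* and *wry*, had at most 7 counts in any library.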
